A study of Homo sapiens with 6 samples.

Results

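The metallothioneins and 2 genes tied to them, the zinc exporter gene SLC30A1 and the zinc-sensing transcription factor gene MTF1, were followed in MCF10A cells. MCF10A is a line of human breast epithelial cells that does not form tumours. Cells of one group were transfected with a miR-221 and miR-222 mimic (the mimic) and those of the other with miR-control, a control microRNA (the control), with 3 biological replicates of each by the labels. RNA of each replicate was measured on its own single-colour array, giving 6 arrays. Both groups share the cell line and the transfection, and the sources used here give no dose, time point or control sequence. The members are every probe set annotated to MT1E, MT1F, MT1G, MT1H, MT1M, MT1X, MT2A, SLC30A1 or MTF1. They comprise 9 of the 19775 genes and 17 of the 54613 probe sets tested, and 0 of the 17 list a further gene. The genes were picked with the mimic against control values of these arrays known, so those values describe the members and test nothing about them.

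Metallothioneins are small, cysteine-rich proteins that bind zinc and copper, buffer them in the cell, and also bind toxic metals such as cadmium. Their genes lie side by side on human chromosome 16. When free zinc is high, MTF1 binds metal response elements in their promoters and switches them on. It does the same at SLC30A1, whose protein (ZnT1) pumps zinc out of the cell. Glucocorticoids and cytokine signals through STAT3 also raise metallothionein transcripts, and MT2A is a classic glucocorticoid-induced gene.

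Mature miR-221 and miR-222 are shown because they are the agent given to the mimic cells. Capitals mark the seed, bases 2 to 8, which is the same in both. The sequences are those of the 3p strands in RefSeq (GRCh38.p14, chromosome X, minus strand, at chrX:45746180-45746202 and chrX:45747036-45747056); the labels do not name the strand.
hsa-miR-221-3p: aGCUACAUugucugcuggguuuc
hsa-miR-222-3p: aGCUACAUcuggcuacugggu

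Promoter sequences show where the element read by MTF1 could sit. RefSeq promoter windows (GRCh38.p14) were matched for 5 of the 9 members: MT1H, MT1X, MT2A, SLC30A1 and MTF1. The element's core was searched as TGCGCNC or TGCACNC on both strands, and overlapping matches were each counted. The 250 bases before the gene start are printed 5′ to 3′ on the gene's strand, with every match in capitals, for MT2A (chr16:56608334-56608583, plus strand), MT1H (chr16:56669564-56669813, plus strand), MT1X (chr16:56682220-56682469, plus strand) and SLC30A1 (chr1:211579162-211579411, minus strand).
MT2A: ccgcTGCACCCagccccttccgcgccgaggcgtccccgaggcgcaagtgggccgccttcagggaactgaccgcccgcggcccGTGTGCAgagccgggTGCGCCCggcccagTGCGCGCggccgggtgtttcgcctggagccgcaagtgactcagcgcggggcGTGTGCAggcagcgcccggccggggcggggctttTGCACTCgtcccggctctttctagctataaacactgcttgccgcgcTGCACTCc
MT1H: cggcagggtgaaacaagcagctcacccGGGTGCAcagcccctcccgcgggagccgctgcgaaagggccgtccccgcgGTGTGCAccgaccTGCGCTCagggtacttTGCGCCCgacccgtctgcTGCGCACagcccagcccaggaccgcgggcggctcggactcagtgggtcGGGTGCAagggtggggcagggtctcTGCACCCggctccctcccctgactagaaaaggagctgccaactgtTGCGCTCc
MT1X: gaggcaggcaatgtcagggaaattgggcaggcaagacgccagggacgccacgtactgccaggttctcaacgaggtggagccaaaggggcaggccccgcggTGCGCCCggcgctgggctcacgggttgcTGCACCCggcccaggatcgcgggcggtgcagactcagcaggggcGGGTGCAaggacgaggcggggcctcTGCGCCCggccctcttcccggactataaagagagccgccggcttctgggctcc
SLC30A1: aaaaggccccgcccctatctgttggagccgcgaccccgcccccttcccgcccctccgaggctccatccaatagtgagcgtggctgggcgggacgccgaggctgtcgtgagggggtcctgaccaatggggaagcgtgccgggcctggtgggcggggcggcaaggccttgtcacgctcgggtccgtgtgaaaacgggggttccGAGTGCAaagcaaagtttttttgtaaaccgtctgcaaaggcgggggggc

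The printed stretch held 7 matches in MT2A, 8 in MT1H, 4 in MT1X and 1 in SLC30A1. Over the full window of 300 bases, which runs to 50 bases past the start, the numbers were 8, 8, 4 and 2, and MTF1 had 0. Among 35116 RefSeq promoter windows of the same length, 29.6% held at least 1 match, 8.60% at least 2, 0.601% at least 4 and 0.0199% at least 8. A match lay on the gene's strand with its first base 53 bases before the start in MT1H and MT1X and 54 bases before it in MT2A. MT1B and MT4, family members outside the 9, held 3 matches each, and 2.30% of all windows held at least as many. In MT1B, too, a match on the gene's strand began 53 bases before the start. A match is a stretch of letters, and binding was not measured here.

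**Figure D1:**
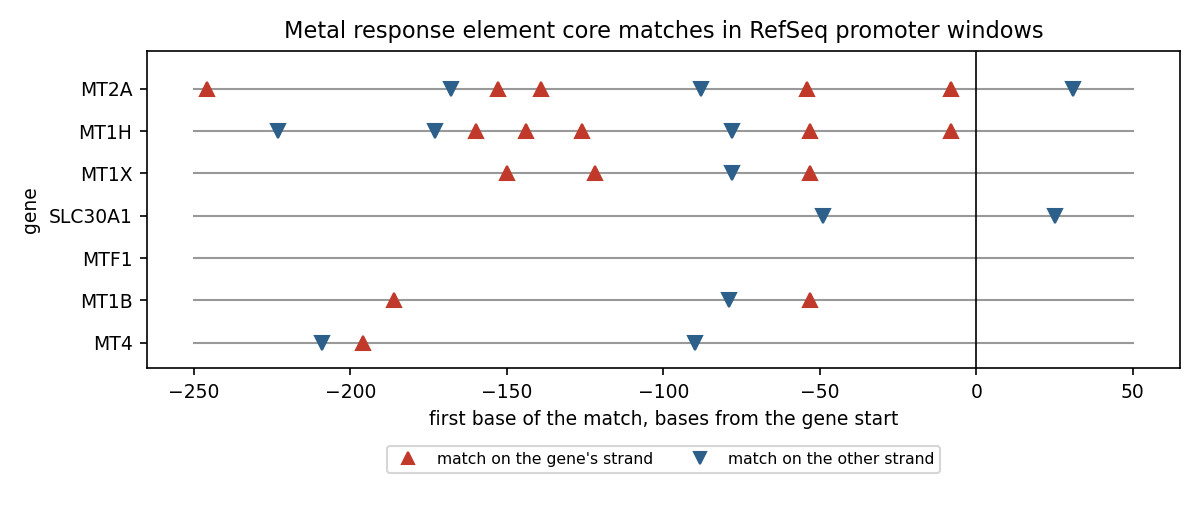
Positions of metal response element core matches in the RefSeq promoter windows of 7 genes; the horizontal axis is the distance of a match's first base from the gene start in bases, upward triangles are matches on the gene's strand and downward triangles on the other strand. MT2A and MT1H carry 8 matches each, MT1X 4, SLC30A1 2 and MTF1 0.

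Metallothionein signal was lower in all 3 mimic arrays than in all 3 control arrays at 9 of the 11 metallothionein probe sets, with log2 differences (mimic minus control) from -0.90 to -0.49. These correspond to 53.5% to 71.2% of the control level. SLC30A1 was lower in the mimic at 2 of its 3 probe sets. At the 3 probe sets of MTF1 the arrays of the groups overlapped, with differences of 0.012 to 0.086. By limma with Benjamini-Hochberg adjustment over all probe sets, 11 of the 17 member probe sets were past the threshold of 0.05, all lower in the mimic. Over all probe sets, 24.8% were past it in either direction, 13.1% lower and 11.6% higher in the mimic. The arrays of the groups did not overlap, with the mimic below, at 11 of 17 member probe sets, against 18.2% of all probe sets (39.2% in either direction). With each gene read at its brightest probe set, this held for 7 of the 9 genes, against 21.9% of all genes (45.6% in either direction). Nothing is read from these counts, since the contrast was known when the genes were picked. In RNA from whole cultures, less transcript in every cell and fewer cells with the transcript cannot be told apart.

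**Figure D2:**
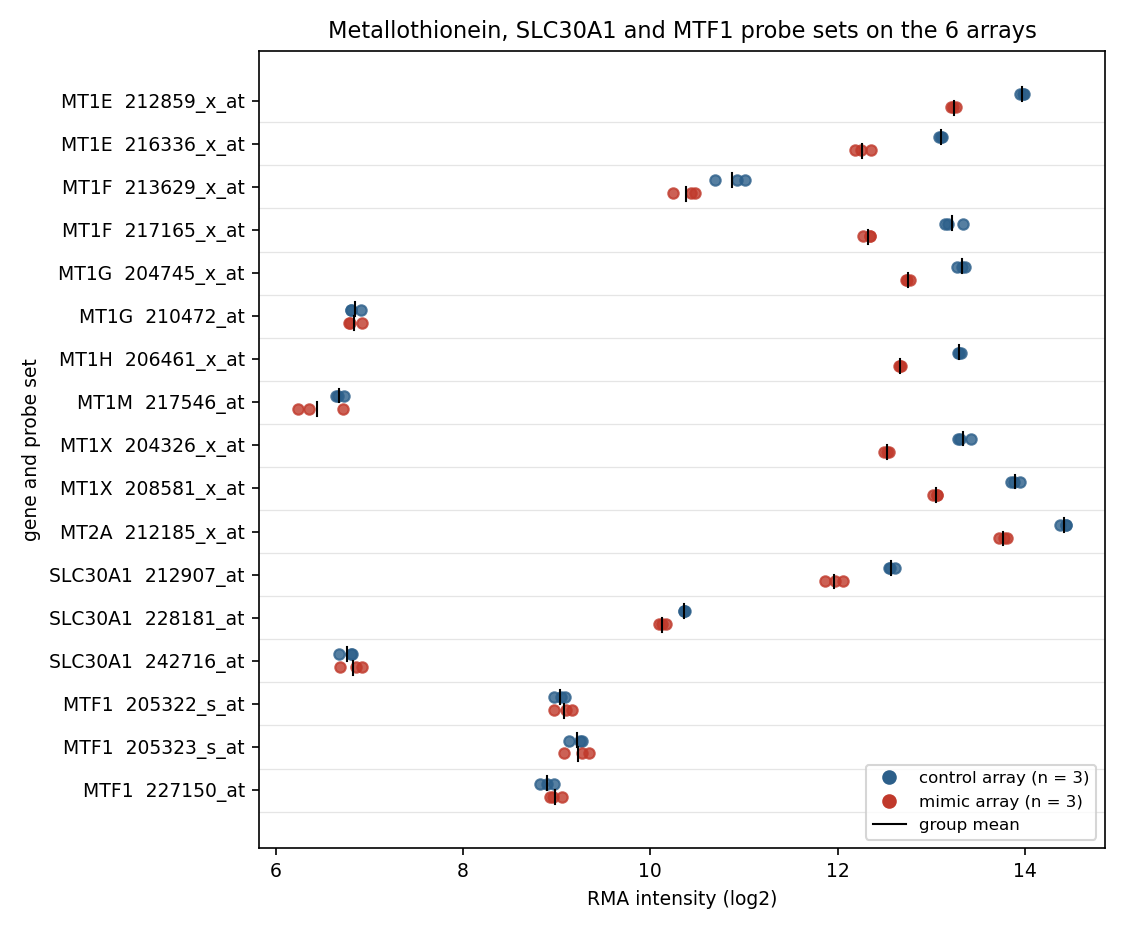
RMA intensities (log2, horizontal axis) of the 17 member probe sets on the 6 arrays, with blue points for control arrays, red points for mimic arrays and a black bar at each group mean (n = 3 each). At the 9 bright metallothionein probe sets the red points lie wholly to the left of the blue points, while the MTF1 points overlap.

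Measures of the arrays and of cell type markers stand beside these values. The 3′ minus 5′ signal of the beta-actin control probe sets, a measure of RNA integrity, ran from 0.33 to 0.39 in the mimic and from 0.29 to 0.36 in the control arrays, and that of GAPDH from 0.02 to 0.04 and from -0.05 to 0.02. All 5 measured basal mammary markers, KRT5, KRT14, EGFR, CDH3 and ITGB4, were above the array medians, with a mean of 11.43 to 11.56 in the mimic and 12.72 to 12.81 in the control arrays, and all 5 fell. Markers of other cell types fell or rose singly: DCN rose and LUM and FAP fell among 6 of fibroblasts, KDR fell among 4 of endothelium and CD14 among 3 measured of blood cells, while COL1A1, COL1A2, PDGFRB, PECAM1, VWF, CDH5, PTPRC and CD3E did not pass. Array means were 8.59 to 8.67 in the mimic and 8.79 to 8.81 in the control for the fibroblast, 7.65 to 7.79 and 8.04 to 8.10 for the endothelial, and 8.20 to 8.31 and 8.55 to 8.58 for the blood cell markers; their part in the metallothionein values was not tested.

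MT2A, the single metallothionein 2 gene, read 13.81, 13.78 and 13.72 in the mimic arrays and 14.44, 14.44 and 14.37 in the control arrays (log2 intensity). The mimic arrays lay wholly below the control arrays. The group means were 13.77 ± 0.05 and 14.42 ± 0.04 (SD, n = 3 each), a log2 difference of -0.65 ± 0.06 (SE), or 63.8% of the control level. These values sit near the top of the scale, where the highest value on any array was 14.90 to 14.95. Whether the scale is compressed there was not tested.

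MT1X, one of the metallothionein 1 genes, has 2 probe sets. At the first, 208581_x_at, the mimic arrays read 13.02, 13.06 and 13.06 and the control arrays 13.89, 13.95 and 13.85. The difference was -0.85 ± 0.06 (SE), against -0.81 ± 0.06 (SE) at 204326_x_at. Both pairs of groups were apart on every array. MT1E, another of them, had differences of -0.74 ± 0.06 (SE) at 212859_x_at and -0.84 ± 0.07 (SE) at 216336_x_at. At 212859_x_at the mimic arrays read 13.24, 13.21 and 13.27 and the control arrays 13.95, 13.99 and 13.98.

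MT1F showed both the largest and the smallest difference of the 9 bright metallothionein probe sets. At 217165_x_at the mimic arrays read 12.27, 12.34 and 12.34 and the control arrays 13.15, 13.17 and 13.34, a difference of -0.90 ± 0.07 (SE). At 213629_x_at they read 10.44, 10.48 and 10.24 against 10.93, 11.02 and 10.69, a difference of -0.49 ± 0.09 (SE). The groups were apart at both. MT1H read 12.66, 12.68 and 12.67 against 13.28, 13.32 and 13.30. That is a difference of -0.63 ± 0.06 (SE), with the groups apart and SDs of 0.010 and 0.016 (n = 3 each).

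MT1G and MT1M are each read by a probe set of low signal, and MT1G by a bright one as well. The bright MT1G probe set, 204745_x_at, had a mean of 12.75 ± 0.02 for mimic arrays and 13.32 ± 0.04 for control arrays (SD, n = 3 each), a difference of -0.57 ± 0.06 (SE). The dim one, 210472_at, had a mean of 6.84 in both groups, with overlapping arrays and a difference of -0.008 ± 0.067 (SE). MT1M has 1 probe set, which read 6.35, 6.72 and 6.24 in the mimic and 6.73, 6.64 and 6.67 in the control. Mimic replicate 2 lay among the control arrays. The difference was -0.24 ± 0.11 (SE). It was -0.39 without mimic replicate 2, where it passed the threshold (limma adjusted p = 0.00581), -0.14 without mimic replicate 3 and -0.093 with array weights, where it did not.

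The probe set design limits how far the family can be taken apart. All 9 bright metallothionein probe sets of the members carry the suffix x_at, which marks probes that can bind several similar transcripts. The members' 2 metallothionein probe sets without it, 210472_at and 217546_at, lay below the array medians of 7.59 to 7.66. Their means over the 6 arrays were 6.84 and 6.56. The 9 values are therefore not 9 separate measurements, and how much of each signal comes from the named gene was not tested. A smooth (loess) trend was fitted to the mimic minus control differences of all probe sets against their signal level. It ran from -0.07 to -0.04 at the levels of these 9. Effects particular to these probes were not tested.

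The family members outside the 9 genes came from a list of names. Of its 11 genes and pseudogenes, 3 had a probe set of their own, and 1 of the 3 fell. MT1HL1, a metallothionein 1H-like gene, read 13.55, 13.53 and 13.53 in the mimic and 14.15, 14.19 and 14.17 in the control, apart on every array (difference -0.64 ± 0.06 SE, limma adjusted p = 1.03e-05). Its probe set also carries the x_at suffix. MT3, the brain-enriched metallothionein, had a difference of -0.13 ± 0.08 (SE, limma adjusted p = 0.246), and MT4, that of stratified epithelia, one of 0.014 ± 0.086 (SE, limma adjusted p = 0.928). The list's median was -0.13, against 0.03 over all genes, of which 30.4% were past the threshold (16.3% lower and 14.1% higher in the mimic).

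Of the 6 genes beside the chromosome 16 cluster, 2 fell, 1 rose and 3 did not pass, where 30.4% of all genes were past the threshold. They were chosen by position in RefSeq (GRCh38.p14), as the 3 nearest measured protein-coding genes on each side. Before MT4, OGFOD1 fell, by 0.33 (limma adjusted p = 0.00301), while BBS2, at 0.13 ± 0.08 (SE), and NUDT21, at -0.004 ± 0.084 (SE), did not pass. Beyond MT1X, the nuclear pore gene NUP93 fell by 0.35 (limma adjusted p = 0.0013), SLC12A3 was at 0.07 ± 0.06 (SE) without passing, and HERPUD1, an endoplasmic reticulum stress gene, rose by 0.65 (limma adjusted p = 6.11e-05). With each gene's probe sets averaged, OGFOD1 (-0.13, limma adjusted p = 0.099) and NUP93 (-0.12, limma adjusted p = 0.074) were not past the threshold, and HERPUD1 was at 0.36.

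SLC30A1 read 11.86, 11.98 and 12.06 in the mimic and 12.61, 12.55 and 12.56 in the control at its brightest probe set, 212907_at. The groups were apart, with a difference of -0.61 ± 0.07 (SE), or 65.7% of the control level. At 228181_at the difference was -0.24 ± 0.06 (SE), from arrays between 10.09 and 10.17 in the mimic and between 10.36 and 10.38 in the control. That second probe set was past the threshold as deposited, and not after quantile normalization again (-0.17), with the loess trend removed (-0.17) or without mimic replicate 2 (-0.22). The third, 242716_at, lay below the array medians and its groups overlapped (0.059 ± 0.075 SE). None of the 3 carries the x_at suffix.

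MTF1 read 9.35, 9.27 and 9.08 in the mimic and 9.13, 9.27 and 9.25 in the control at 205323_s_at, with overlapping arrays and a difference of 0.012 ± 0.080 (SE). The other probe sets gave 0.043 ± 0.069 (SE) at 205322_s_at and 0.086 ± 0.066 (SE) at 227150_at, also with overlapping arrays. These values concern the transcript of MTF1, whose activity is set largely by zinc binding and location in the cell and was not measured.

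Zinc transporters other than SLC30A1 changed in both directions, and SLC39A8 had the largest difference of those measured. SLC39 proteins (ZIPs) bring zinc into the cytosol, from outside or from organelles, and SLC30 proteins (ZnTs) remove it. Of the 14 SLC39 genes, 5 fell and 1 rose (42.9% past the threshold, median difference -0.09). Of the other 9 SLC30 genes, 2 fell and 2 rose (44.4%, median 0.06), against 30.4% of all genes.

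SLC39A8 (ZIP8), which takes up zinc, manganese and cadmium, fell most. It read 8.99, 9.20 and 9.30 in the mimic and 11.05, 10.99 and 11.01 in the control, or 27.6% of the control level (log2 difference -1.86 ± 0.08 SE, limma adjusted p = 3.49e-08). The mimic arrays lay far below the control arrays. Of its 6 probe sets 4 fell, the next by 1.38, and the 2 that did not pass were at -0.13 each. With all 6 averaged the difference was -0.68. SLC39A14 (ZIP14), a close relative that also carries iron, read 11.44, 11.58 and 11.65 against 12.62, 12.47 and 12.48. It fell to 51.2% of the control level (log2 difference -0.97 ± 0.07 SE, limma adjusted p = 2.83e-06), and by 0.93 at a second probe set of its 3. SLC39A10 (ZIP10), an importer of the cell surface, read 10.01, 10.05 and 10.13 against 10.72, 10.66 and 10.58 and fell by 0.59 ± 0.07 (SE, limma adjusted p = 5.18e-05). The groups were apart at all 3 genes. SLC39A7 and SLC39A9, which move zinc out of the secretory pathway, had differences of -0.43 and -0.51 and both fell; SLC39A9 was at -0.22 with its 4 probe sets averaged. SLC39A3 did not pass at its brightest probe set (0.036 ± 0.059 SE) and rose at its 2 others, by 0.28 and 0.23. SLC39A11 rose by 0.22, a call lost without mimic replicate 2 (limma adjusted p = 0.0697) or without control replicate 1 (limma adjusted p = 0.0681).

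SLC30A7 (ZnT7), which loads zinc into the Golgi, rose by 0.55 ± 0.08 (SE, limma adjusted p = 0.00035) from arrays of 9.83, 9.75 and 9.73 in the control to 10.17, 10.34 and 10.46 in the mimic. It rose at 2 of its 3 probe sets and was at 0.31 with the 3 averaged. SLC30A4 (ZnT4), found on endosomes, rose by 0.44 ± 0.06 (SE, limma adjusted p = 0.000352) at 1 of its 3 probe sets. With the 3 averaged it was at 0.18. SLC30A6 fell by 0.35 at 1 of its 4 probe sets and was at -0.08 with all 4 averaged (limma adjusted p = 0.23). SLC30A9 fell by 0.21, with a limma adjusted p of 0.0477. At a threshold of 0.05, this call was lost under 8 alternatives (limma adjusted p from 0.0595 to 0.193). Among them were the fits without mimic replicate 1 or 2 and without each control replicate. The other probe set of SLC30A9 was at -0.62 (limma adjusted p = 0.000875), and with both averaged the gene was at -0.41.

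**Figure D3:**
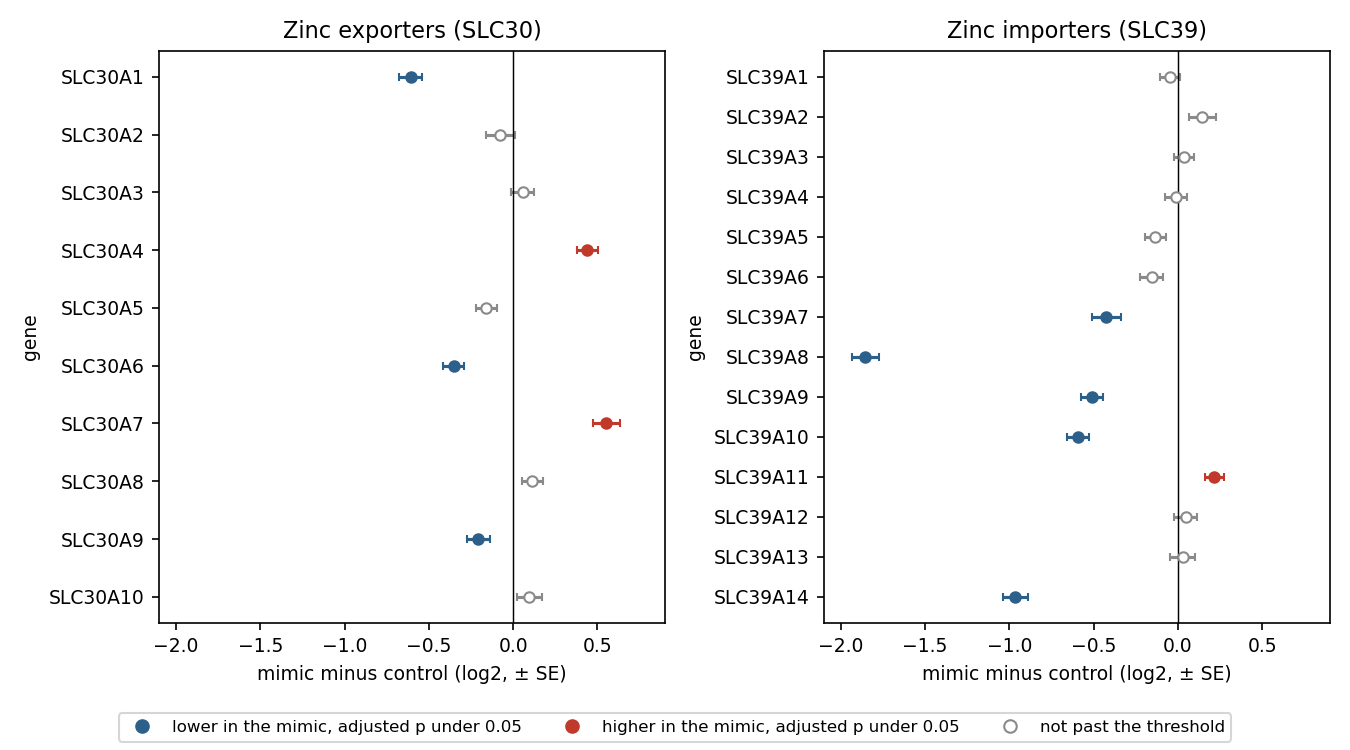
Mimic minus control differences (log2, horizontal axis) of the zinc exporter genes, SLC30A1 included, and the zinc importer genes, each at its probe set with the highest mean; bars are SE from limma on 3 arrays per group, filled points passed an adjusted p of 0.05 and open points did not. SLC39A8 lies farthest left at -1.86, and SLC30A7 farthest right at 0.55.

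Of 9 known regulators of metallothionein transcription, 1 rose and 1 fell (22.2% past the threshold, median -0.008), against 30.4% of all genes. NR3C1, the glucocorticoid receptor gene, read 12.45, 12.49 and 12.62 in the mimic and 11.87, 11.84 and 11.78 in the control. It rose by 0.69 ± 0.07 (SE, limma adjusted p = 1.72e-05), and it rose at all 5 of its probe sets, by 0.66 to 0.78. STAT3 read 11.44, 11.56 and 11.55 against 12.22, 12.22 and 12.15 and fell by 0.68 ± 0.06 (SE, limma adjusted p = 1.3e-05), at 3 of its 4 probe sets. The groups were apart for both. SP1, EP300, USF1, USF2, HSF1, NFE2L2 and KEAP1 did not pass, with differences from -0.19 for SP1 to 0.18 for USF2. SP1 passed, as lower in the mimic, without mimic replicate 3. Of its 4 probe sets, 2 fell over all arrays, with differences of -0.22 and -0.26, and 2 did not pass, at -0.19 each. Regulators that fell also numbered 2 with each gene's probe sets averaged, with eBayes trend and robust, and with array weights.

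Of 11 measured glucocorticoid response genes other than MT2A, 8 rose and 3 fell, with a median of 0.44. Over all genes, dim ones included, 14.1% rose and 16.3% fell. Without the 40% dimmest probe sets, which these genes are not among, 5818 of 32768 probe sets rose and 6872 fell. TSC22D3, which encodes the leucine zipper protein GILZ, read 13.25, 13.27 and 13.35 in the mimic and 12.64, 12.68 and 12.54 in the control and rose by 0.67 ± 0.07 (SE, limma adjusted p = 1.71e-05). ERRFI1, an inhibitor of the EGF receptor, rose by 0.66 ± 0.06 (SE, limma adjusted p = 1.18e-05), and the transcription factor gene ZBTB16 by 0.61 ± 0.07 (SE, limma adjusted p = 9.27e-05). The groups were apart at all 3. FKBP5, an inhibitor of the receptor, rose by 0.49, 0.68 and 0.81 at its 3 probe sets, and SGK1, DUSP1, KLF9 and NFKBIA rose by 0.32 to 0.47. KLF9 was at 0.21 with its 5 probe sets averaged. CEBPD, TFCP2L1 and HSD11B2, which encodes the enzyme that inactivates cortisol, fell, with differences of -0.29, -0.42 and -0.56. CEBPD was at -1.24 at its other probe set and at -0.77 with both averaged. The difference of MT2A had the sign of these 3. PER1 was read by probe sets that also list another gene and was not counted.

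**Figure D4:**
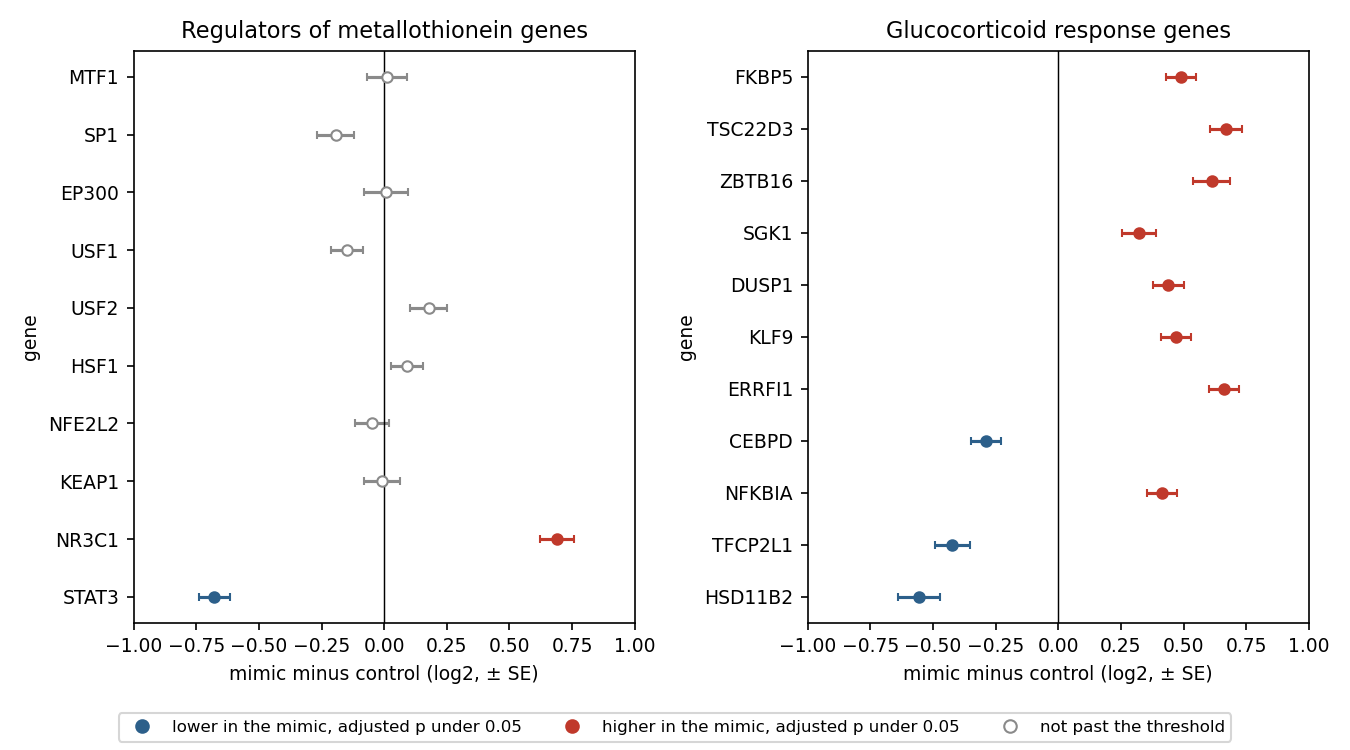
Mimic minus control differences (log2, horizontal axis) of MTF1 and 9 regulators of metallothionein genes and of 11 glucocorticoid response genes, each at its probe set with the highest mean; bars are SE from limma on 3 arrays per group, filled points passed an adjusted p of 0.05 and open points did not. NR3C1 lies at 0.69 and STAT3 at -0.68, and 8 of the 11 glucocorticoid response genes lie to the right of 0.

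Of 11 measured heavy metal and oxidant response genes, which cadmium and other stressors induce together with metallothioneins, 6 rose and 2 fell (72.7% past the threshold, median 0.26), against 14.1% and 16.3% of all genes. SLC7A11, the cystine transporter subunit, rose 6.84-fold at its brightest probe set (log2 difference 2.77 ± 0.07 SE), 5.58-fold and 2.16-fold at its others, and by 2.12 on the log2 scale with the 3 averaged. TXNRD1, thioredoxin reductase, rose 2.07-fold (1.05 ± 0.07 SE, and 0.51 with its 2 probe sets averaged). HMOX1, the haem oxygenase gene that metals induce strongly, read 9.38, 9.46 and 9.47 in the mimic and 8.98, 8.92 and 8.98 in the control and rose by 0.47 (limma adjusted p = 0.000143). GCLM, NQO1 and the chaperone gene HSPH1 rose by 0.26, 0.27 and 0.70; NQO1 was at 0.12 with its 3 probe sets averaged and did not pass (limma adjusted p = 0.121). GCLC, the catalytic subunit of glutathione synthesis and a known MTF1 target, fell by 0.68 ± 0.06 (SE, limma adjusted p = 7.99e-06), at all 3 of its probe sets. The co-chaperone gene BAG3 fell by 0.79. SRXN1, OSGIN1 and DNAJB1 did not pass, at 0.19, 0.17 and 0.14. With array weights all 11 genes passed, 9 higher and 2 lower in the mimic. After quantile normalization again, or with the loess trend removed, 10 passed, 8 higher and 2 lower. HSPA1A, HSPA1B and HSPA8 share their probe sets with other genes and were not counted.

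Copper and iron handling genes moved in both directions: of 13 measured genes, 5 fell and 3 rose (61.5% past the threshold, median -0.05), against 16.3% and 14.1% of all genes. Without mimic replicate 3 or control replicate 2, 1 rose. TFRC, the transferrin receptor that brings in iron, read 12.37, 12.43 and 12.43 in the mimic and 13.30, 13.38 and 13.29 in the control and fell by 0.92 ± 0.06 (SE, limma adjusted p = 9.78e-07), at 3 of its 5 probe sets (-0.59 with the 5 averaged). SLC11A2 (DMT1), a transporter of iron and other divalent metals, fell by 0.81 ± 0.09 (SE, and by 0.46 with its 5 probe sets averaged) and ACO1, which also serves as an iron regulatory protein, by 0.50 ± 0.06 (SE). The copper importer gene SLC31A1 and the copper chaperone gene ATOX1 fell, with differences of -0.29 and -0.32. SLC31A1 also fell at its other probe sets, with differences of -0.78 and -0.48, and was at -0.52 with all 3 averaged. SOD1, the copper and zinc superoxide dismutase gene, rose by 0.31. SLC31A2 and ATP7B rose by 0.24 and 0.26. At a threshold of 0.05, each of these calls was lost under 4 alternatives. The limma adjusted p then ran from 0.0594 to 0.109 for SLC31A2 and from 0.0697 to 0.174 for ATP7B. FTL, the ferritin light chain gene, was at 0.047 ± 0.061 (SE) and did not pass.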

How the data were processed

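RNA was measured in 3 mimic and 3 control cultures, 1 array each. The deposited values are log2 intensities per probe set, normalized across arrays with RMA by the authors per the submitters' processing notes; the sources used here name no version or settings, and the range of the values shows the log2 scale. RMA makes array distributions alike, so a change in total RNA per cell would not show. The number of arrays limits the precision.

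Of 54675 probe sets, 62 controls were left out. By the platform annotation, 41091 probe sets have 1 gene symbol, 1801 several (naming none here) and 11721 none. Member probe sets were all reported; any other gene was represented by its brightest probe set (highest 6-array mean). The limma package, version 3.58.1 (lmFit, eBayes), in R 4.3.3 was applied to the log2 values, without covariates, with Benjamini-Hochberg adjustment over all 54613 probe sets. Errors of differences are moderated standard errors. The fit was tested on simulated data. The members and gene lists were chosen with earlier results of these data known. By rule the text names every member and, from each list, at most 3 genes among those past the threshold, by size of change; any further gene was named with its values already seen.

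Alternatives were quantile normalization again, median centring, leaving out the 40% dimmest probe sets, eBayes with trend and robust, a fit with the replicate number as a block, array weights, averaging a gene's probe sets, leaving out each array in turn, a threshold of 0.01, and, added after seeing the data, removing a loess trend (span 0.3), a promoter window of 250 bases and the genes beside the cluster. Sequences are RefSeq's (GRCh38.p14). Tables and figures were made with Python 3.11.15, pandas 2.3.3, numpy 2.4.6 and matplotlib 3.10.9.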

Additional observations from a re-analysis of the deposited data

How the results depend on the processing

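Over all probe sets, 10266 to 13314 were past the threshold when 1 array was left out, against 13523 with all. With array weights 18198 passed, and at a threshold of 0.01 9128 did. Of 17 member probe sets, 10 or 11 were past the threshold under every alternative that kept probe sets apart, all lower in the mimic. Without the 40% dimmest probe sets, 14 of the 17 were tested and 11 passed, against 12690 of the 32768 probe sets kept. SLC30A1 228181_at dropped out after quantile normalization, with the loess trend removed and at a threshold of 0.01. It also dropped out without mimic replicate 2, where MT1M entered and the count stayed at 11. Of 218 member values under alternatives, 206 kept direction and side of the threshold. Values near 0 changed sign: with 1 array left out, MT1G 210472_at ranged from -0.052 to 0.028 and MTF1 205323_s_at from -0.045 to 0.088; MTF1 205323_s_at was at -0.017 with arrays centred on their medians, and SLC30A1 242716_at at -0.022 with array weights. Of 602 values of 43 other genes past the threshold, 580 kept both and 22 kept the direction only. With a gene's probe sets averaged, SLC31A1 was at -0.52 and SLC30A9 at -0.41, past the threshold. Regulators past the threshold numbered 4, in place of 2, with eBayes trend and robust and with array weights; the cause was not tested. With the replicate number as a block, 13372 probe sets passed and 11 member probe sets. Same-numbered arrays deviated from their group means with correlations of -0.11, 0.08 and 0.08, and not every array correlated best with its own number, so the numbers were not taken to pair the samples. Counts by direction also moved. Heavy metal and oxidant genes that rose numbered 9, in place of 6, with array weights. They numbered 8 after quantile normalization again or with the loess trend removed. Copper and iron genes that rose numbered 1, in place of 3, without mimic replicate 3 or control replicate 2. Zinc exporters that fell numbered 1, in place of 2, in all fits with 1 array left out but that without mimic replicate 3. Zinc importers that rose numbered 0, in place of 1, without mimic replicate 2 or control replicate 1. Zinc importers that fell numbered 6, in place of 5, without mimic replicate 3. Regulators that fell numbered 2, in place of 1, without mimic replicate 3 and with each gene's probe sets averaged. Probe sets with low signal, MT1M and 210472_at among them, give no firm value.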
